A study of Rattus norvegicus with 10 samples.

Results

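Epithelial cells are held together by tight junctions, adherens junctions and desmosomes, and the 7 genes described here encode proteins of these structures or, for Epcam, of the lateral membrane beside them. Their probe sets are all those on the Affymetrix RAE230A array whose platform annotation names Cldn3, Cldn4, Cldn7, Cdh1, Epcam, Dsp or Perp as the only gene. This gave 8 probe sets for the 7 genes, 2 of them for Perp, out of 15866 probe sets that were not array controls and 10411 genes. Total RNA was measured on 10 arrays, 1 per sample, in cavernosal tissue, the erectile tissue of the penis, taken from rats of the inbred strain F344. The 5 control samples carry no treatment in the labels, and the 5 diabetic samples came from rats made diabetic with streptozotocin, which kills the insulin-producing cells of the pancreas, and are labelled as 10 week diabetic. The rats' ages, and whether a sample was 1 animal or a pool, are not given in the sources used here. The p-values therefore measure the spread between these samples, which may be partly technical.

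Tight junctions seal the space between neighbouring epithelial cells, and the claudins that form their strands set what passes. Adherens junctions join cells through E-cadherin, and desmosomes anchor the keratin filaments of one cell to those of the next. Erectile tissue itself consists mainly of smooth muscle, endothelium and connective tissue, whereas the urethra, the skin and the glands beside it carry epithelium.

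Each of the 7 genes had its lowest readings in controls 1 and 2, its next lowest in control 4, and higher readings in controls 3 and 5 and in every diabetic array. The diabetic arrays averaged higher for all 8 probe sets, by 1.40 to 2.36 on the log2(intensity + 16) scale, with a median over the 7 genes of 1.84. None of these differences passed limma's test across all probe sets (0 of 8 at an adjusted p of 0.05, with adjusted p from 0.237 to 0.284), and for none of the 8 did the 2 groups separate. Control arrays spread far more widely than diabetic arrays, with a median SD over the 7 genes of 2.04 against 0.41.

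The arrays gave 1 linear intensity per probe set, which the authors had scaled to a common trimmed mean, and array medians lay between 116.8 and 131.4. Of the 15866 probe sets, 9683 exceeded an intensity of 85.9 on at least 5 of 10 arrays and were tested, among them all 8 of the junction genes. Limma called 41 of these 9683, or 0.423%. Intensities depend on each probe set's own response, so the level of one gene is not set against that of another. Controls 1 and 2 also stood apart over the tested probe sets with the 8 left out. Their correlations with the other 9 arrays had medians of 0.859 and 0.875, against 0.919 to 0.959 for the remaining arrays. Among the 10 control pairs, controls 1 and 2 correlated most closely with each other (0.974), and controls 1 and 5 least (0.777). Genes outside the 8 that followed them, described below, stayed in these correlations. Summed intensities of 11 skeletal muscle markers were 61776 to 76436 in control and 48422 to 66857 in diabetic arrays. Those of 9 smooth muscle markers were 11095 to 14112 and 11889 to 15172, with Des the largest part. Among the other smooth muscle markers, Myh11 read 929.1 to 1703.1 in control and 1427.6 to 2284.7 in diabetic arrays. Actg2 read 574.8 to 1281.1 and 1106.9 to 1615.9, so markers of both muscle types were read in every sample.

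**Figure D1:**
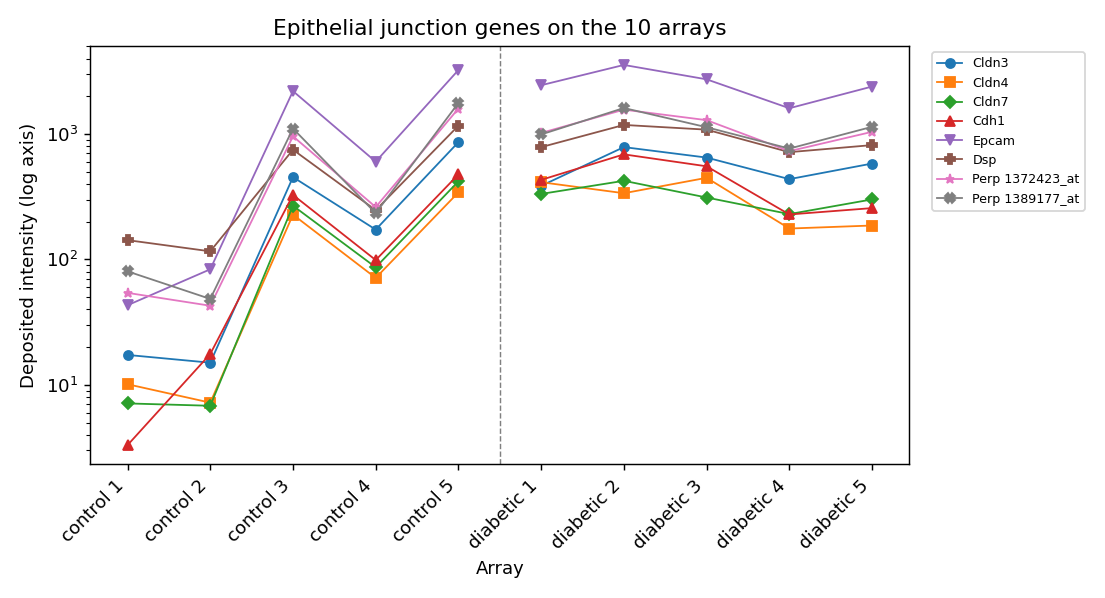
Deposited intensity (log axis) of the 8 probe sets on each of the 5 control and 5 diabetic arrays. Each point is 1 array, and lines only join the points of a probe set within a group. All 8 are lowest on controls 1 and 2 and next lowest on control 4, and no diabetic array falls to the level of control 4.

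Claudin 3 (Cldn3, probe set 1368115_at), a barrier-forming claudin, read 17.3, 15, 453.4, 172.9 and 862.1 in controls 1 to 5. The diabetic arrays 1 to 5 read 386.4, 786.8, 649.1, 436.8 and 581.7. The highest and the lowest values both belonged to controls, and all 5 diabetic arrays lay inside the control range. The control mean was 304.1 ± 359 and the diabetic mean 568.2 ± 162 (SD, n = 5 each), a log2 difference of 1.90 ± 0.85 (SE; limma adjusted p = 0.282).

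Claudin 4 (Cldn4, 1388547_at), which limits sodium passage in several epithelia, read 10.1, 7.2, 227.5, 71.2 and 342.7 in controls 1 to 5 and 412.9, 337.3, 447.7, 176.3 and 186.4 in diabetic arrays 1 to 5. Diabetic arrays 1 and 3 lay above every control, while the other 3 lay inside the control range. Its log2 difference was 1.84 ± 0.73 (SE; limma adjusted p = 0.242). Cldn3 and Cldn4 neighbour each other in the rat genome, with no other protein-coding gene between them in RefSeq.

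Claudin 7 (Cldn7, 1370894_at), found along the lateral membrane as well as in tight junctions, read 7.1, 6.8, 268.1, 86.5 and 419.6 in the controls and 332.9, 423.7, 311.7, 229.9 and 301.1 in the diabetic arrays. Only diabetic 2 exceeded control 5, and by a small margin. In diabetic tissue Cldn7 had the smallest spread of the 8 probe sets, with an SD of 0.30 on the log2 scale against 1.98 in controls, and its log2 difference was 1.84 ± 0.77 (SE; limma adjusted p = 0.258).

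Epcam (1388199_at) encodes the epithelial cell adhesion molecule, which binds claudin 7 at the lateral membrane. It read 43.1, 83.4, 2200.6, 602.3 and 3243.2 in controls 1 to 5, and 2452.1, 3558.5, 2731.7, 1606.6 and 2393.2 in diabetic arrays 1 to 5. Its range over the 10 arrays, 5.92 on the log2 scale, was the widest of the 8 probe sets, and control 5 stood 75.2-fold above control 1 and 38.9-fold above control 2. Diabetic 2 alone exceeded control 5. The difference between the groups, 2.36 ± 1.01, was also the largest of the 8, and it missed the threshold (limma adjusted p = 0.264).

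The sequence ahead of the start sites is shown for Cldn3, Cldn7 and Epcam, 250 bases each, from RefSeq (build GRCr8). A RefSeq promoter was available for 5 of the 7 genes, but not for Cldn4 or Cdh1. Capitals mark the E-box CACCTG or its reverse complement CAGGTG, the letters that the repressors Snail and Zeb are known to bind ahead of the E-cadherin gene of other mammals. The windows are chr12:27346548-27346797 on the minus strand for Cldn3, chr10:55188420-55188669 on the plus strand for Cldn7 and chr6:12649679-12649928 on the minus strand for Epcam.
Cldn3: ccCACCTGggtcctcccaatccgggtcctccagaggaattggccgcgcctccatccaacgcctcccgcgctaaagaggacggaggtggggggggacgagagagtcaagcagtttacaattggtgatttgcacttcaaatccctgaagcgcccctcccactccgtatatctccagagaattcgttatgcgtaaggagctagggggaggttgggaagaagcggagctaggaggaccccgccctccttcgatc
Cldn7: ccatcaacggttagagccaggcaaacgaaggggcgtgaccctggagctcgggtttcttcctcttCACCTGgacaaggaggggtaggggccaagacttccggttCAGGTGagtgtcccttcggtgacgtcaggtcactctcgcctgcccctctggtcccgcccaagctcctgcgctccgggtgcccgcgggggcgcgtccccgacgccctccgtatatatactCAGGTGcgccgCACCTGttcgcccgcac
Epcam: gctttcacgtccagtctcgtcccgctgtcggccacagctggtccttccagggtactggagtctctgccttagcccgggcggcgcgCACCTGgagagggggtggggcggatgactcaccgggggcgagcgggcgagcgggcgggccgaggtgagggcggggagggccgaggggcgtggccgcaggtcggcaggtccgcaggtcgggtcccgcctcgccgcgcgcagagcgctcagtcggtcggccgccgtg
Cldn7 held 4 E-boxes, which began 186, 147, 28 and 17 bases before the start site, and Cldn3, Epcam, Dsp and Perp held 1 each. Of 33469 rat promoters of the same length, 15.9% held at least 1 on either strand and 0.0299% at least 4. The 5 windows were also rich in G and C, at 59.2% to 75.6% against a median of 51.2% over all promoters. The GC box GGGCGG or its complement CCGCCC was present in all 5, against 30.5% of all promoters. A Grainyhead motif, also searched for, was found in 0 of the 5, against 1.76% of all promoters. These matches describe the letters in the window, and no binding was measured here. The promoters they are set against were not matched for G and C content. The part of these motifs in the shared profile of the genes was not tested.

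E-cadherin, encoded by Cdh1 (1386947_at), carries the adhesion of adherens junctions. It read 3.3, 17.6, 326.9, 98.8 and 476.3 in controls 1 to 5 and 431.0, 688.7, 553.0, 228.3 and 256.6 in diabetic arrays 1 to 5. Control 1 lay at percentile 2.86 of its array, while control 5 lay at percentile 84.0 of its own. Diabetic arrays 2 and 3 exceeded control 5, and diabetic arrays 4 and 5 lay below control 3. In diabetic tissue Cdh1 spread the most of the 8, with a log2 SD of 0.66, and the groups differed by 1.98 ± 0.82 (SE; limma adjusted p = 0.256).

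Desmoplakin, encoded by Dsp (1388506_at), ties keratin filaments to the desmosome. It read 142.5, 116.0, 750.1, 247.0 and 1166.8 in controls and 786.4, 1182.5, 1084.1, 717.1 and 816.3 in diabetic arrays. Its readings on controls 1 and 2 lay near the middle of those arrays, at percentiles 55.3 and 49.6. Its range over the arrays was the narrowest of the 8, 3.18 on the log2 scale, and control 5 exceeded control 1 by 8.19-fold. The difference between the groups was the smallest, 1.40 ± 0.55 (SE), with the lowest adjusted p of the 8 (limma, 0.237).

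Perp encodes a tetraspan membrane protein that desmosomes of stratified epithelia need, and 2 probe sets read it. Probe set 1372423_at read 54.1, 42.7, 959.4, 261.5 and 1598.4 in controls and 1020.6, 1565.7, 1290.7, 730.1 and 1041.5 in diabetic arrays. The brighter probe set, 1389177_at, read 80.3, 48.4, 1105.9, 233.7 and 1770.6, and 992.6, 1613.4, 1133.6, 765.6 and 1142.3. The readings of the 2 probe sets, each centred on its own mean, differed by 0.13 on average on the log2 scale, and by either of them all 5 diabetic arrays lay inside the control range. Their log2 differences were 1.98 ± 0.84 and 1.82 ± 0.82 (SE; limma adjusted p = 0.265 and 0.284).

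Against all probe sets, the 7 genes stood out by their spread. The smallest control SD among the 8 probe sets was that of Dsp at 1.40, a size that 1.48% of the 9683 reached, and the median of all was 0.27 in control and 0.18 in diabetic arrays. Across all 10 arrays the range of the 8 was 3.18 to 5.92, against a median of 0.79, and 1.79% of all probe sets had a range of at least 3.18. For the difference between groups, the median over all probe sets was 0.047, with 57.8% of them higher in diabetic tissue. All 8 probe sets had an unadjusted limma p under 0.05, between 0.0272 and 0.0491, as did 17.5% of all 9683. Exact permutation tests over the 252 assignments of the arrays gave 0.0873 to 0.143 (two-sided; the smallest possible is 0.00794), and groups that did not overlap were found for 0 of the 8 and for 3.89% of the 9683.

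**Figure D2:**
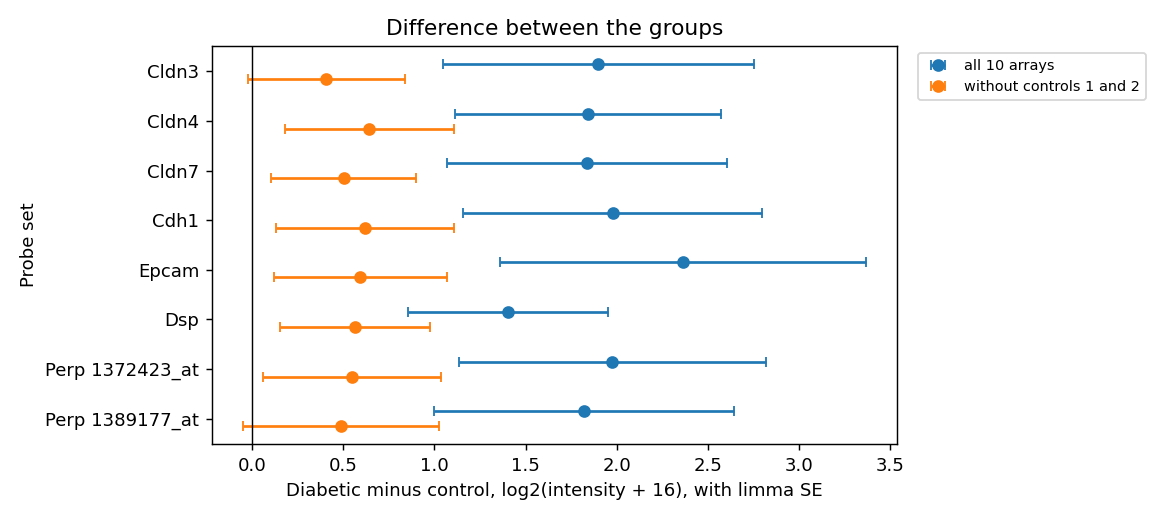
Difference between diabetic and control arrays on the log2(intensity + 16) scale for each of the 8 probe sets, with bars for the limma SE, over all 10 arrays and without controls 1 and 2. The differences run from 1.40 to 2.36 with all arrays and from 0.41 to 0.64 without controls 1 and 2.

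The difference between the groups was far smaller without controls 1 and 2. It then stood at 0.41 for Cldn3, 0.64 for Cldn4, 0.50 for Cldn7, 0.62 for Cdh1, 0.59 for Epcam, 0.56 for Dsp, and 0.55 and 0.49 for the probe sets of Perp. These values are a description, since the pair of arrays had been noticed for its low epithelial genes. Without control 5 alone, the highest control, limma called 7 of the 8 as higher, all but Epcam (adjusted p from 0.0304 to 0.0516), when 5.32% of all probe sets were called higher. With array weights, which give less weight to arrays that fit poorly, it called 8 of 8 as higher, with 17.2% of all probe sets called higher. Under every other setting 0 of the 8 were called. The share of all probe sets called higher was then 0.217% in the fit used here and with quantile normalization, 0.134% with median centring, 0.124% with a pseudocount of 1 and 0.145% with 64. It was 0.0945% without a filter, 0.338% with a filter at the 60th percentile, 0.238% without the trend, and 0% with scan day or station as a block or without controls 1 and 2. Leaving out controls 1 to 4 in turn gave 0%, 0.0103%, 0.145% and 0.0826%, and leaving out diabetic arrays 1 to 5 gave 0.0207%, 0%, 0%, 0.0826% and 0.0413%.

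Array records placed the 10 arrays on 4 scan days and 2 fluidics stations, with 4 controls and 1 diabetic array on station 1 and the reverse on station 2. Within scan days 1, 2 and 3 the 8 probe sets lay higher in diabetic arrays by 1.47 to 3.03, 1.09 to 2.30 and 1.27 to 2.11. Each of these days held at least 1 of the low controls 1, 2 and 4. Within stations 1 and 2 the differences were 1.69 to 2.98 and 1.46 to 2.02, and control 4 was the only control on station 2. With scan day as a block the log2 differences ran from 1.42 to 2.35 (limma adjusted p from 0.451 to 0.485), and with station as a block from 1.70 to 2.43 (limma adjusted p from 0.317 to 0.379).

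Averaged over the 7 genes, each centred on its own mean, the arrays fell in the order control 1 (-2.97), control 2 (-2.91), control 4 (-0.90), diabetic 4 (0.42), control 3 (0.72), diabetic 5 (0.75), diabetic 1 (0.92), diabetic 3 (1.19), control 5 (1.36) and diabetic 2 (1.42). In control 4 the 7 genes lay between -1.25 and -0.63, and in diabetic 4, the next array in the order, between 0.23 and 0.63. Genes read on the same array are not independent replicates of that sample, so the order is a description. Cldn7 followed the average most closely, with a mean absolute difference of 0.091, and held rank 1 among all 7143 tested genes. Cldn3 held rank 4, Perp 5, Cdh1 9, Cldn4 11, Epcam 29 and Dsp 39, where the median gene differed by 1.34. Since the 7 genes make up that average, their ranks are partly built in.

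The genes outside the 7 whose profile over the 10 arrays lay nearest to the average were Ehf, an epithelial transcription factor (0.18), and Ccl28, a chemokine of mucosal and gland epithelium (0.19). They were followed by Krt8, a keratin of simple epithelium (0.21), Spint2, an inhibitor of serine proteases that also guards Epcam from cleavage (0.22), Tcim (0.23) and Pdzk1ip1 (0.25). The remaining genes of the nearest 10 were Krt18, the partner keratin of Krt8 (0.25), Mgat4a, a glycosyltransferase (0.27), Tc2n (0.28) and Ero1b, an oxidase of the endoplasmic reticulum (0.28). For Ehf, controls 1 and 2 gave 2.1 and 6.7, control 4 gave 68.1, and the diabetic arrays lay between 261.7 and 511.3. Each of these 10 genes thus had the low pair, the intermediate control 4 and the high remainder of the junction genes.

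Among the 7 genes, Cldn4 and Cdh1 were each other's nearest in profile (mean absolute difference 0.23), as were Cldn7 and Perp (0.21). Cldn3 lay nearest to Cldn7 (0.22), Epcam to Cldn3 (0.31) and Dsp to Cldn4 (0.38), while Epcam and Dsp were farthest apart (0.75). On the 8 arrays other than controls 1 and 2, where the readings were higher, the ratio of Cldn4 to Cldn3 varied over 1.65 on the log2 scale, or 3.15-fold. It was highest in diabetic 1, at 1.06 above its mean, and next in diabetic 3 (0.45), and it was lowest in diabetic 5 (-0.59). The ratio of Cdh1 to Cldn3 was likewise highest in diabetic 1 (0.69) and lowest in diabetic 5 (-0.60), with diabetic 2 (0.35) and diabetic 3 (0.31) next to the top. Both ratios share Cldn3, which in diabetic 1 lay at -0.52 relative to the average of the 7 genes. The ratio of Cldn4 to Cldn7 was highest in diabetic 3 (0.66), then diabetic 1 (0.45), and again lowest in diabetic 5 (-0.49).

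Keratin ratios, chosen after their values were seen, were set beside these. Krt19 over Krt18 stood at 1.09 in diabetic 1, 0.43 in diabetic 3 and -0.55 in diabetic 5, with its lowest value, -0.67, in control 5. Krt15, a keratin of basal cells in stratified epithelium, over Krt8 stood at 1.78, 0.87 and -1.30 in the same 3 diabetic arrays. The diabetic arrays 1 and 3, where Cldn4 was highest, thus also had the highest Krt19 to Krt18 and Krt15 to Krt8 ratios of the 8 arrays. The part of keratin type in the claudin ratios was not tested.

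**Figure D3:**
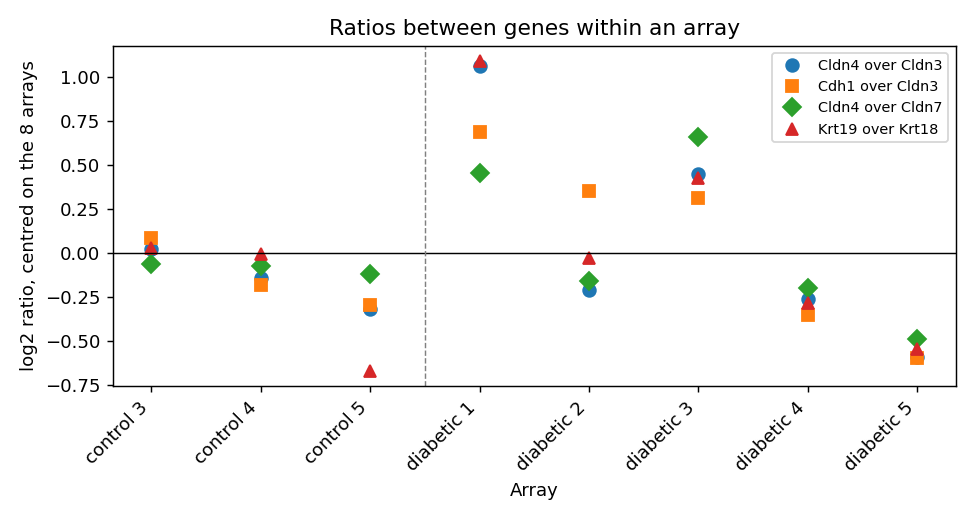
Log2 ratio of Cldn4 to Cldn3, of Cdh1 to Cldn3, of Cldn4 to Cldn7 and of Krt19 to Krt18 within each of 8 arrays, each ratio centred on its mean over these arrays. Controls 1 and 2, where the claudins were near the bottom of the array, are left out. Cldn4 to Cldn3, Cdh1 to Cldn3 and Krt19 to Krt18 are highest in diabetic 1, at 1.06, 0.69 and 1.09, and Cldn4 to Cldn7 in diabetic 3, at 0.66.

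Other parts of the junctions were measured through 5 further lists of 84 genes, of which 45 were on the array and 37 were tested. Limma called 0 of the 37 in either direction, with 13 at an unadjusted p under 0.05, and 33 of the 37 were higher in diabetic tissue. Over all 9683 probe sets 0.423% were called, 17.5% had an unadjusted p under 0.05 and 57.8% were higher. How much these genes varied over the arrays differed widely, with ranges from 0.28 for Cldn12 to 6.74 for Cldn10.

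In the tight junction list 0 of 11 tested genes passed, and the median difference was 0.44. The 3 with the smallest p were Pard3, a polarity scaffold (0.56 ± 0.16, limma adjusted p = 0.141), F11r, the junctional adhesion molecule A (0.99 ± 0.44, adjusted p = 0.275), and the scaffold Magi1 (0.33 ± 0.15, adjusted p = 0.283). Pard3 read 95.8 to 193.0 in control and 205.2 to 242.7 in diabetic arrays, so its groups did not overlap. It was the only 1 of the 37 genes with no overlap, against 3.89% of all probe sets. Another claudin, Cldn5, was listed with the endothelial markers, so it is not among the 37. Cldn5 read 160.4 to 317.8 in control, lowest in control 5, and 365.9 to 532.2 in diabetic arrays, also without overlap. Its difference was 0.83 ± 0.19 (limma adjusted p = 0.0771), and it was chosen after its values were seen. Chosen after their values were seen, Cldn10, a claudin of ion pores, gave 32.4 on control 1 and 80.0 on control 2, against 913.4 to 5147.0 on the other 8 arrays. Ocln, the tight junction protein occludin, gave 118.1 and 69.0 on the same pair by its brighter probe set, against 168.2 to 634.2 in the others. By contrast Tjp1, the plaque protein ZO-1, ranged over 0.53 on the log2 scale and Cldn12 over 0.28.

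In the adherens junction list 0 of 10 tested genes passed, with all 10 higher and a median of 0.25. Afdn, the nectin-binding protein afadin, stood at 0.47 ± 0.13 (limma adjusted p = 0.128), Nectin2 at 0.54 ± 0.21 (adjusted p = 0.237) and Lima1, an actin-binding protein, at 0.35 ± 0.16 (adjusted p = 0.276). The widest range in this list was 1.14, that of Nectin2, against 5.19 for Cdh1. The catenins, which bind cadherin tails, ranged over 0.97 for Ctnna1, 1.11 for Ctnnb1 and 0.45 for Ctnnd1. Each gene of the list is given by its brightest tested probe set. The 3 tested probe sets of Ctnnb1 differed between the groups by 0.10 to 0.74, and the 2 of Vcl by -0.09 to 0.02.

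In the desmosome list 4 genes were tested and 0 passed, with a median of 0.46 and all 4 higher. Pkp4, a plakophilin, stood at 0.64 ± 0.25 (limma adjusted p = 0.237), Pkp2 at 0.45 ± 0.25 (adjusted p = 0.364) and Evpl, envoplakin, at 0.46 ± 0.26 (adjusted p = 0.368). Their ranges of 1.42 to 1.61 were narrower than the 3.18 of Dsp. Dsc2, also in this list, was too dim to be tested, but its readings had the order of the junction genes. It read 3.8 and 11.6 in controls 1 and 2, 18.4 in control 4, and 57.9 and 77.7 in controls 3 and 5. In diabetic arrays it read 35.8 to 98.4, and its range was 2.53. In the hemidesmosome list, whose proteins fix epithelium to the basement membrane, 0 of 5 passed. Lama3, a laminin chain, stood at 0.41 ± 0.14 (adjusted p = 0.204), Itgb4, integrin beta 4, at 0.81 ± 0.33 (adjusted p = 0.247) and Cd151, a tetraspanin, at 0.19 ± 0.11 (adjusted p = 0.375).

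Of the epithelial regulators and partners of EpCAM 0 of 7 passed, all 7 were higher, and the median was 1.18. St14, the membrane protease matriptase, stood at 1.20 ± 0.46 (limma adjusted p = 0.232), Ehf at 2.08 ± 0.83 (adjusted p = 0.246) and Klf5, a transcription factor of proliferating epithelium, at 0.61 ± 0.26 (adjusted p = 0.261). Spint2 ranged over 4.44 and Prss8, the protease prostasin, over 3.91, whereas Cd9, a tetraspanin of many cell types, ranged over 0.63.

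**Figure D4:**
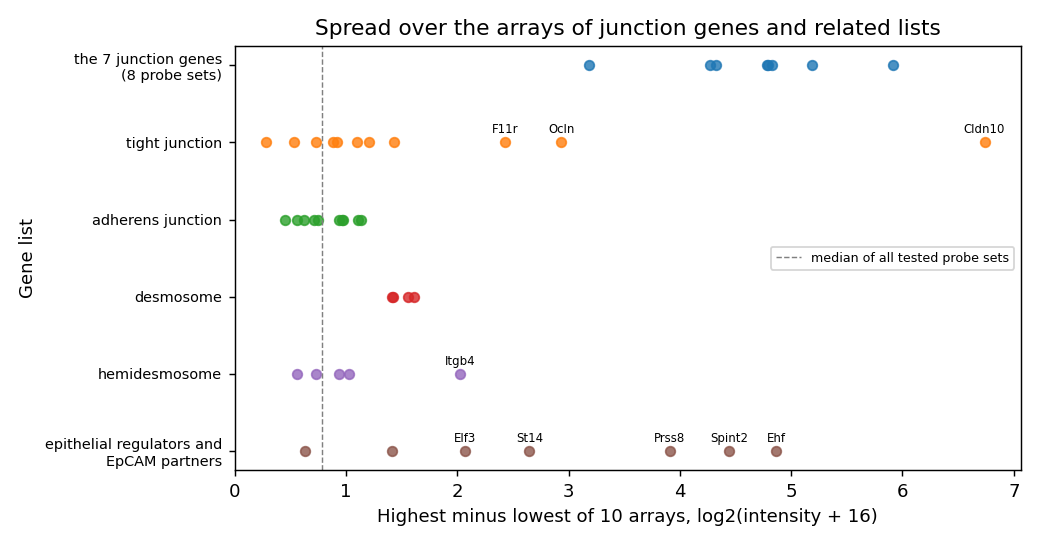
Highest minus lowest of the 10 arrays on the log2(intensity + 16) scale for the 8 probe sets and for each tested gene of 5 related lists. List genes are shown by their brightest tested probe set, with genes above 2 named. The median of all tested probe sets (0.79) is a dashed line. The 8 probe sets lie between 3.18 and 5.92, and all 10 adherens junction genes lie at or below 1.14.

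Several markers of epithelium moved with the 7 genes, and others did not. Simple epithelium keratins (5 of 5 on the array) summed to 146.5 (control 1), 238.8 (control 2) and 983.1 (control 4), against 2929.7 and 4974.6 in controls 3 and 5 and 2100.6 to 4489.6 in diabetic arrays. Krt7, Krt8, Krt18 and Krt19 carried this sum, while Krt20 read 21.9 to 52.9 over all 10 arrays with no such order. Stratified epithelium keratins (7 of 9) summed to 342.5 to 2229.0 in control and 908.5 to 4007.5 in diabetic arrays, with control 1 (722.2) above control 4 (594.7). Among them Krt5, Krt15 and Krt4 were lowest in controls 1 and 2 and next lowest in control 4, like the 7 genes. Krt14 and Krt13 were not in that order, and Krt1 (144.6) and Krt10 (198.9) were highest in control 1. Secretory gland genes (7 of 9) summed to 526.5 and 1606.9 in controls 1 and 2, 3099.1 in control 4, and 9767.6 to 16822.4 in the other 7 arrays. Pip, Pigr and Aqp5 made up most of that sum on every array but control 1, where they read only 8.8, 53.9 and 8.3. Slpi read 244.0 and 267.9 in controls 1 and 2 against 101.9 in control 5, and Scgb1a1 and Muc1 did not follow the 7 genes either. Nor was Lcn2 in their order, with 103.0 in control 2 and 96.2 in control 3, and its range on the log2 scale was 0.94. No gene of these 3 lists was at 0 on any array. Urothelial markers (0 of 5) could not be read here.

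In such bulk samples fewer epithelial cells and less of these transcripts per cell cannot be told apart. The part of gland and keratin content in the difference between the groups was not tested. Endothelial markers (9 of 11) did not follow: their sum was 1739 to 2648 in control and 2237 to 2963 in diabetic arrays, with control 5, high in all 7 genes, the lowest of all 10 arrays. The sum of fibroblast markers (6 of 6) was 22144 to 32828 in control, highest in controls 1 and 2, and 11116 to 17759 in diabetic arrays. The collagen genes Col1a1 (-2.05), Col1a2 (-1.81) and Col3a1 (-1.35) carried that difference and did not overlap between the groups, as was the case for 3.89% of all probe sets (limma adjusted p from 0.0592 to 0.0658). Dcn (-0.0087), Lum (-0.06) and Pdgfra (-0.25) overlapped. The part of these genes in the difference was not tested.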

How the data were processed

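Total RNA of 5 control and 5 diabetic samples was hybridised to 1-colour Affymetrix RAE230A arrays, as the array records state. The deposited table gives a linear intensity for every probe set on every array. Trimmed by 2% at both ends, array means came to 250.055 to 250.065, so the authors' intensity values had been scaled to a common level. No source used here names the summary software, and detection calls are lacking, so whether a dim reading is background was not tested. Scan day and fluidics station came from other fields of the deposited array records. Replicate numbers follow the order of deposit.

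Of 15923 rows, 57 array controls were left out. Symbols were updated through Entrez identifiers for 12748 of 12783 probe sets with 1 gene. Intensities were floored at 1 and transformed as log2(intensity + 16), a scale that understates changes of dim probe sets. Probe sets above the table's 40th percentile on at least 5 arrays were tested with limma 3.58.1 in R 4.3.3 (lmFit, eBayes with an intensity trend, two-sided, Benjamini-Hochberg over all tested, threshold 0.05). The fit was tested on simulated data with independent noise of the same SD in both groups. That setting lacks the wider control spread and the shared movement of genes seen here, so it does not show how the fit behaves under them. Where a gene had several probe sets, the brightest tested one was used in lists. The genes named are the 7 junction genes, the 3 with the smallest p in each junction list and the 10 with the nearest profile, unless said otherwise; list genes named for their range or level were chosen after their values were seen. The members, lists and alternatives were chosen with earlier results of these data known. Figures were drawn with matplotlib 3.10.9.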

Additional observations from a re-analysis of the deposited data

How the results depend on the processing

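No setting turned the direction of any of the 8 probe sets: all 216 values under alternatives, within-day and within-station values included, were positive, from 0.41 to 3.56. The changes of filter, the fit without the trend and the permutation test cannot alter the difference itself. Their values among the 216 repeat the main one and add no information on direction. Only array weights (8 of 8 called), leaving out control 5 (7 of 8) and no other alternative led limma to call any of them, so over single arrays left out the count ran from 0 to 7. The median difference of the 7 genes ran from 0.56 without controls 1 and 2 to 2.90 with array weights. The median difference between control and diabetic SD, 1.68, stood at 2.17 with a pseudocount of 1, 1.004 with a pseudocount of 64 and 0.77 without controls 1 and 2. Over single arrays left out it ran from 1.45 to 1.99. Over all probe sets limma called 41, 21 of them higher, against 43 with median centring, 13 of them higher, 2813 with array weights, 26 without a filter, 22 with a pseudocount of 1, and 0 with scan day or station as a block (1119 and 1483 at an unadjusted p under 0.05) or without controls 1 and 2 (773). Leaving out controls 1 to 5 in turn gave 0, 1, 24, 8 and 1068 calls, and leaving out diabetic arrays 1 to 5 gave 2, 0, 0, 13 and 6. The counts of 0 had 1126 (control 1), 1163 (diabetic 2) and 1303 (diabetic 3) at an unadjusted p under 0.05. The cause of these shifts was not tested. The number of arrays limits the precision. Intensities of claudins and Cdh1 in controls 1 and 2 lay near the bottom of their arrays, so folds against them are uncertain. No paired analysis was possible because the sample titles of the groups share only 1 number, that of control 4 and diabetic 1.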

Other observations

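Sox10, a transcription factor listed here as a Schwann cell marker and also expressed in some gland epithelia, followed the junction genes. It was chosen after its values were seen. It read 20.1 and 52.3 in controls 1 and 2, 161.5 in control 4, 418.2 and 602.2 in controls 3 and 5, and 450.9 to 640.5 in diabetic arrays. Its difference between the groups was 1.76 ± 0.67 (SE; limma adjusted p = 0.228), and its profile lay 13th nearest to the average of the 7 genes among all tested genes outside them. Of the other Schwann cell markers, Mag was also lowest in controls 1 and 2 (87.1 and 67.1, against 101.8 to 121.3 on the other 8 arrays), with a difference of 0.21 ± 0.12 (SE; limma adjusted p = 0.380). S100b, Mbp and Pmp22 read in another order. S100b was at 940.7 and 1006.6 in controls 1 and 2 and at 363.0 in control 5, the brighter probe set of Mbp, myelin basic protein, was at 1015.3 and 693.0 against 299.0, and Pmp22 was at 2534.1 and 1913.6 against 1005.6.

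Aqp5, a water channel of gland epithelium, read 8.3 and 16.4 in controls 1 and 2 and 2411.4 in control 5, with 547.4 to 1229.3 in diabetic arrays. Every diabetic array thus lay below controls 3 and 5, unlike Epcam or the claudins. The groups differed by 1.85 ± 1.18 (SE; limma adjusted p = 0.414).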
